A study of Rattus norvegicus with 22 samples.

Results

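The cytosolic ribosomal protein genes were followed across 22 Affymetrix arrays of rat spinal cord from thoracic level 10. Members were taken by gene symbol. A gene was included where a probe set carried a single symbol of the form Rpl or Rps followed by a digit, or Rplp0, Rplp1, Rplp2 or Rpsa. The Rps6k kinases and the mitochondrial Mrp genes were not included. This gave 57 probe sets for 50 genes, out of 14217 genes with a single-symbol probe set, and each gene was read from its probe set with the highest mean log2 signal. The 50 genes comprised 42 genes of the ordinary ribosome, called core members below (29 of the large and 13 of the small subunit), 6 paralogs (Rpl3l, Rpl7l1, Rpl26l1, Rpl39l1, Rps27l and Rps4y2) and 2 symbols of pseudogenes (Rpl37-ps2 and Rps4x-ps1). A further 35 ribosomal protein probe sets carried several symbols each and were kept apart, since their signal cannot be given to 1 gene. Rplp1, Rps14, Rps19, Rps4x, Rpl10a, Rps27 and Rpl22l1 are not among the members because their symbols stand only on probe sets with several symbols. No probe set used here carried the symbols Rplp2, Rpl39l and Rpl36al.

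The study compared untouched cord (normal, 3 arrays), cord after laminectomy, the removal of the bone over the cord without a contusion (3 arrays), and contused cord without treatment (2 arrays). The contusion was made by letting a 10 g weight fall from 25 mm onto the cord, and tissue was taken 24 h later. The treated groups all carried the same contusion. Clenbuterol (a beta2-adrenergic agonist, 2 arrays, labelled as 150 mg/kg), X-rays (3 arrays, 10 Gy) and tempol (a superoxide dismutase mimetic, 3 arrays, 275 mg/kg) were given 20 min after it. Buthionine sulfoximine (BSO, an inhibitor of glutathione synthesis, 3 arrays, 150 mg/kg) was given 24 h before it, and 3 arrays came from rats given tempol plus BSO. The labels do not give strain, sex or age of the rats, or a time of tissue collection for normal and laminectomy cord. Neither do they say whether the arrays come from separate animals, and the p-values cover the variation among these arrays alone. No array of a rat given a vehicle or a drug without contusion was analysed here.

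Ribosomal proteins assemble with ribosomal RNA into the small subunit, which reads the mRNA, and the large subunit, which joins the amino acids. Their mRNAs are among the most abundant of a cell, and most begin with a terminal oligopyrimidine (TOP) tract, a run of C and T at the very start of the transcript through which mTOR signalling adjusts their translation together. The same tract heads the mRNAs of elongation factors and of several other translation genes. Several ribosomal proteins also act outside the ribosome, and Rpl5 and Rpl11 are known for binding Mdm2 and so stabilising p53.

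To show what the members share at their starts, 50 bases around a single annotated start of transcription were read for each gene. They came from RefSeq for the rat assembly GRCr8, 25 before the start and 25 from it on. A run of at least 7 C or T, on the gene's own strand and beginning within 25 bases of the start, was counted as a pyrimidine run. Of the 43 members with a start sequence 34 held such a run (79.1%), and of the 37 core members 31 did (83.8%). Of all 18999 protein-coding genes with a RefSeq start sequence, 5622 did (29.6%). Of the 6 paralogs and pseudogene symbols with a sequence 3 held one. The lines below give members that the results turn on, with the longest run in capitals, and end with 3 members without a run.
Rplp0: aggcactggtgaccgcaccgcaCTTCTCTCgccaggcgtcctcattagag
Rps3a: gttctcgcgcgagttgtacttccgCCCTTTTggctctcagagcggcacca
Rpl13a: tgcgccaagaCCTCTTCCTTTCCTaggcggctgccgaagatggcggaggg
Rpl14: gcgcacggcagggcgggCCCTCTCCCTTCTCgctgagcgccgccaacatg
Rpl34: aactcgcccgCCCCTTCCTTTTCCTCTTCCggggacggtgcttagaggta
Rps15: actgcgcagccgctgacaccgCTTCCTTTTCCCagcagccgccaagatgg
Rps13: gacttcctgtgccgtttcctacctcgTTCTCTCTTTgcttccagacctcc
Rpl11: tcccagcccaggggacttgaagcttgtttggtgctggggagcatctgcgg
Rps27l: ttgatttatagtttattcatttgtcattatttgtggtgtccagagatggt
Rpl7l1: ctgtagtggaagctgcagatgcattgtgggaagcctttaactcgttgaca

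The windows lie on the minus strand for Rplp0 (chr12:46718366-46718415), Rps3a (chr2:173827018-173827067), Rpl13a (chr1:104748889-104748938), Rpl34 (chr2:221962259-221962308), Rps15 (chr7:10068091-10068140), Rps13 (chr1:180009636-180009685) and Rpl11 (chr5:153560778-153560827). They lie on the plus strand for Rpl14 (chr8:129163595-129163644), Rps27l (chr8:76443633-76443682) and Rpl7l1 (chr9:21695693-21695742). The run was 8 bases in Rplp0, 7 in Rps3a, 14 in Rpl13a and in Rpl14 and 20 in Rpl34, the longest of those shown. Rpl11, a core member whose values followed the other core members, had no run in this window, as had the paralogs Rps27l and Rpl7l1. The window of Rpl11 lies inside its RefSeq gene, which reaches further upstream to position 153561230, so a start there was not read. A run is a description of the annotated sequence; where transcription starts in the cord was not measured.

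The values are hybridization intensities on the log2 scale. A level depends on its probes, so levels are compared between arrays for 1 gene and never between genes. Most core members' probe sets were bright: 38 of the 42 had a mean log2 signal of at least 9, the exceptions being Rpl28 (5.31), Rps13 (5.82), Rpl30 (7.15) and Rpl39 (8.36). The standard deviation within groups had a median of 0.51 over the core members, against 0.86 over all 31042 probe sets and 0.52 over 1170 other probe sets with a mean of at least 10. Among the core members it was largest in Rpl30 (1.04) and Rpl19 (0.98). The smallest belonged to Rpl6 (0.26), Rpl22 (0.29), Rpl41 (0.30) and Rpl7 (0.31), all of the large subunit. The largest of all members belonged to Rpl39l1 (1.49), Rps4x-ps1 (1.44), Rpl37-ps2 (1.16) and Rps27l (1.14), none of them a core member. Of these last 4, the first 3 had mean signals of 5.96, 5.04 and 4.83, and a median of 1.13 was found over all 8 paralogs and pseudogene symbols.

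No member passed an adjusted p of 0.05 (limma, Benjamini-Hochberg over all 31042 probe sets) in the F test over the 8 groups, in which 0.0612% of all probe sets passed, or in any of 9 comparisons. The smallest adjusted p of the F test was 0.546, for Rps13, and 3 members (Rps13, Rpl13a and Rplp0) had an unadjusted p under 0.05. Of all probe sets 7.18% did. What follows is therefore a description of levels that moved together, with no single gene called.

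The core members varied as a block, and the lowest block was in normal cord. Each gene's deviation from its own median over the 22 arrays was taken, and the median over the 42 core members was -1.14 in normal 3, -0.82 in normal 2 and -0.13 in normal 1. In the 19 operated arrays it lay between -0.44 (BSO 1) and 0.73 (laminectomy 2). Normal 2 and normal 3 therefore lay below every other array and did not overlap with them, whereas normal 1 lay among the operated arrays. The array with the highest median after laminectomy 2 was BSO 3 (0.38), followed by contusion 2 (0.36) and tempol plus BSO 2 (0.35). At the low end of the operated arrays BSO 1 was followed by laminectomy 1 (-0.41) and clenbuterol 2 (-0.37). Other probe sets with a mean log2 signal of at least 10 also moved on some arrays. Their median deviation was -0.33 in BSO 1, -0.22 in tempol 1 (core median -0.22) and 0.15 in laminectomy 2. It was -0.02 in laminectomy 1, 0.03 in clenbuterol 2, -0.004 in normal 2 and -0.06 in normal 3.

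**Figure D1:**
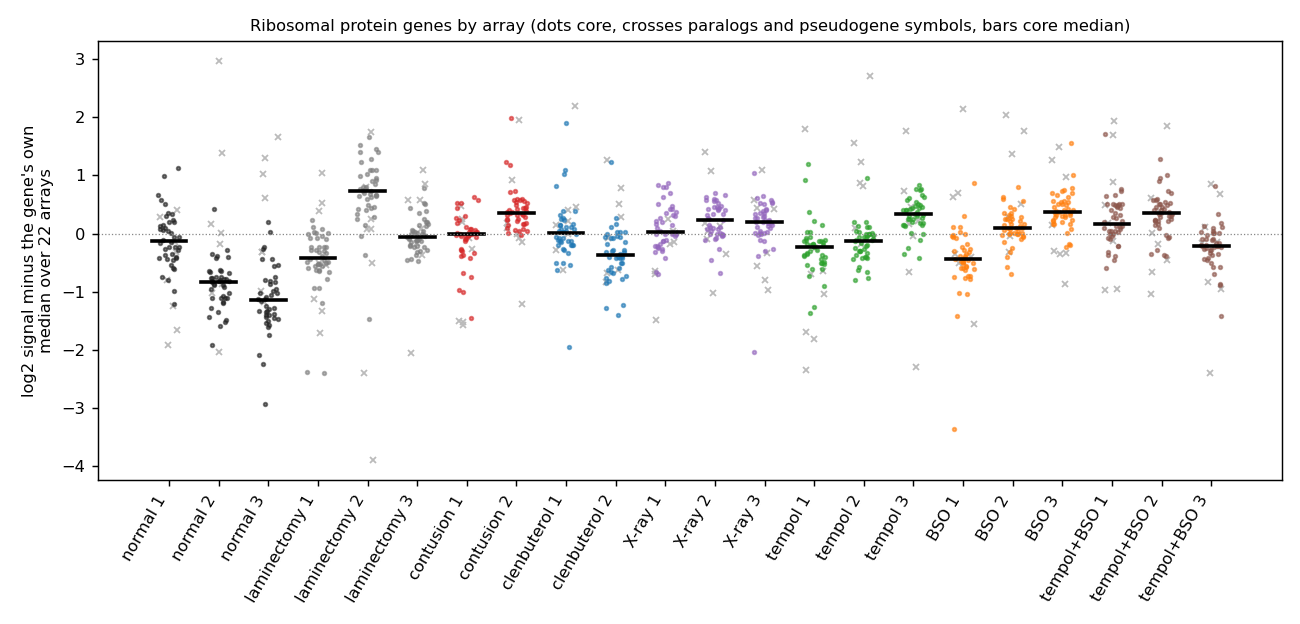
The plot gives, for each of the 22 arrays on the horizontal axis, the log2 signal of every ribosomal protein gene minus that gene's own median over the arrays. Dots are core members, crosses are paralogs and pseudogene symbols, and bars are the core median. The bars of normal 2 (-0.82) and normal 3 (-1.14) lie below all others, and that of laminectomy 2 (0.73) lies highest.

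Gene by gene the same arrays recurred. Of the 42 core members 26 had their lowest value of all arrays in normal 3, where 4.46% of all probe sets had theirs. Normal 2 and normal 3 were the lowest arrays of 24 core members, against 1.06% of all probe sets. In laminectomy 2, 24 core members had their highest value, against 10.5% of all probe sets. The normal group mean was the lowest of the 8 group means in 36 of 42 core members and in 37 of all 50 members, against 13.3% of all probe sets. The 6 core members with another lowest group were Rpl19 (BSO), Rpl30 (X-ray), Rpl23a, Rpl39 and Rps15 (clenbuterol), and Rps13 (laminectomy). The paralogs and pseudogene symbols did not follow this order: 0 of 8 had normal 2 and normal 3 as lowest arrays, and in 1 of 8, Rps4x-ps1, the normal mean was lowest. The 35 probe sets with several symbols, which share no probe set with the members, had normal 2 and normal 3 as lowest arrays in 21 cases and the normal mean as lowest in 30.

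**Figure D2:**
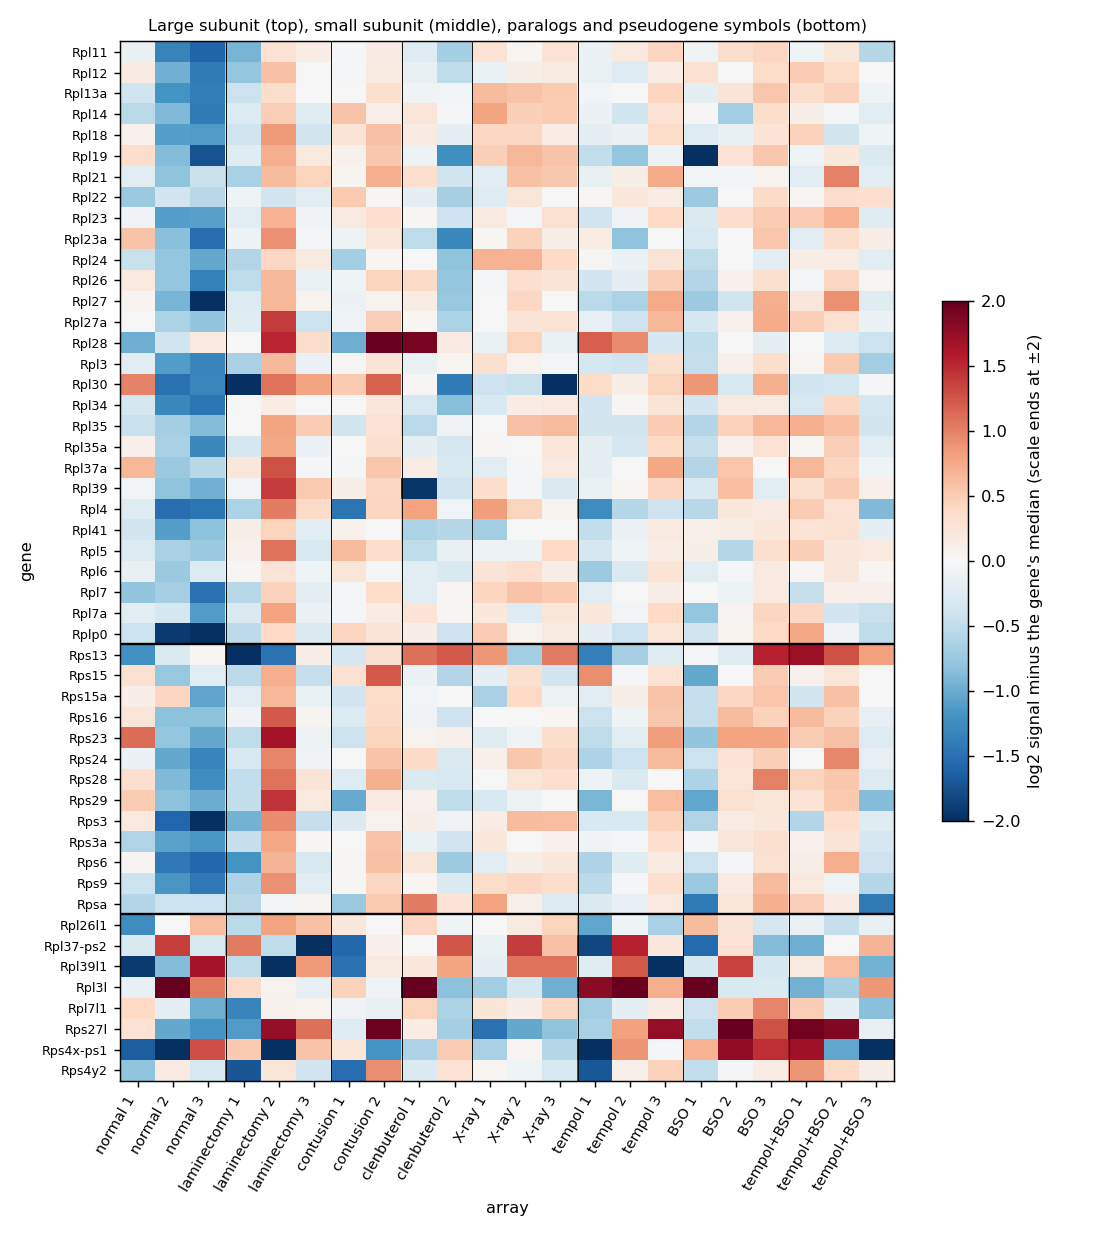
The map gives the log2 signal of each gene (rows) in each array (columns) minus the gene's median over the 22 arrays, with the colour scale ending at 2 on either side, large subunit on top, small subunit in the middle, paralogs and pseudogene symbols at the bottom. The columns of normal 2 and normal 3 are low through most core rows, with a median of -0.82 and -1.14, and the bottom rows show no shared column.

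Other properties of the arrays differed alongside. Laminectomy 2 and normal 1 had the strongest hybridization spikes (mean log2 signal 13.88 and 12.90), against 10.69 to 12.80 elsewhere. The 5 arrays with weaker spikes than any normal array (BSO 1, tempol 1, contusion 1, tempol plus BSO 3 and laminectomy 1) had core medians of -0.44 to -0.01. Normal 2 and normal 3 had spikes of 12.05 and 11.71, and the remaining 14 operated arrays had 11.75 to 13.88. The ratio of the 3' to the 5' probe sets of GAPDH, a sign of RNA quality, was 0.25 and 0.50 (log2) in normal 2 and normal 3, within the operated arrays' range of -0.20 to 0.85, and 1.49 in normal 1. The same ratio of actin was 0.29 and 0.01 in normal 2 and normal 3 and 0.55 in normal 1. It was highest of all arrays in laminectomy 2 (1.38). For hexokinase these arrays had 0.59, -0.46, 2.82 and 0.69, in a range from -3.42 (tempol plus BSO 2) to 3.03 (contusion 2). The summed signal of 8 macrophage markers was 4189 to 6027 in the normal arrays, 11005 to 29085 after laminectomy and 10599 to 22942 in contused cord, and that of 4 neutrophil markers was 315 to 572, 720 to 836 and 945 to 4234. Such sums are weighted to the brightest genes. Of the 8 macrophage markers 6 had a higher mean after laminectomy than in normal cord and 2 a lower one. After contusion alone 7 were higher and 1 lower. Neuronal markers went the other way from the macrophage and neutrophil sums, with 22057 to 37779, 17078 to 30297 and 5068 to 19515 for a sum of 10 genes. The sum of 8 microglia markers overlapped between the groups, with 3317 to 4260, 3011 to 5192 and 2888 to 4801. The summed signals of neuronal and oligodendrocyte markers were at least 5068 and 26431 in every array. In such bulk tissue a change in the share of a cell type and a change in RNA per cell cannot be told apart. The part of spikes, RNA quality or infiltrating cells in the ribosomal protein values was not tested.

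Laminectomy minus normal compares operated cord without a contusion with untouched cord. In the series the normal samples are numbered apart from all operated ones. The labels used here do not state whether they were handled separately, and such a difference could not be told apart from the operation. Of the 50 members 44 had a higher mean after laminectomy, with a median difference of 0.78 on the log2 scale. Of the 42 core members 41 did (median 0.85), with Rps13 the exception. Over all probe sets the median was -0.01 and 49.2% were higher, and over other probe sets with a mean of at least 10 the median was 0.07. No member passed (limma; 0.00644% of all probe sets did). At an unadjusted p under 0.05 there were 12 members, all higher, where 2.96% of all probe sets were. In 9 members the arrays did not overlap, all higher, where 4.43% of all probe sets were. Of the 1170 other probe sets with a mean of at least 10, 72 were higher at that p and 104 higher without overlap. The medians of the subunits were alike, with 0.80 over 34 large-subunit and 0.76 over 16 small-subunit genes. Of the 12 members with an unadjusted p under 0.05, 10 were of the large and 2 of the small subunit. Of the 9 without overlap, 8 were of the large and 1 of the small subunit. The median was 0.46 without laminectomy 2 and 1.13 without normal 1. Without laminectomy 2 and normal 1 together it was 0.74.

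Rplp0, the protein at the base of the stalk that recruits elongation factors to the large subunit, had the smallest p. Its log2 signal was 11.03, 9.54 and 9.21 in normal cord and 10.93, 11.85 and 11.17 after laminectomy. Normal 2 and normal 3 were far below, and normal 1 overlapped with the laminectomy arrays. The difference was 1.39 ± 0.48 (SE), or 2.62-fold, with an adjusted p of 0.715 (limma). Across the alternative settings and with single arrays left out the adjusted p ran from 0.304 to 1.00.

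Rps3a, a protein of the small subunit that contacts initiation factors, stood at 11.24, 10.77 and 10.69 in normal cord and at 11.38, 12.62 and 11.87 after laminectomy. Its arrays did not overlap, and the difference was 1.05 ± 0.38 (adjusted p = 0.773, limma). Rpl34, of the large subunit, stood at 11.25, 10.32 and 10.14 against 11.60, 11.75 and 11.60. The laminectomy arrays lay close together and above all 3 normal ones, and the difference was 1.08 ± 0.40 (adjusted p = 0.773, limma).

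Contusion minus normal compares injured with untouched cord. All 42 core members had a higher mean in the contusion arrays, with a median of 0.88, and 47 of the 50 members did, with a median of 0.82. Over all probe sets the median was 0.01 and 50.5% were higher. No member passed (limma; 0.0483% of all probe sets did). There were 12 members at an unadjusted p under 0.05, all higher, against 3.12% of all probe sets. In 21 members, all core and all higher, both contusion arrays lay above the 3 normal arrays, against 10.6% of all probe sets. Of the 1170 other probe sets with a mean of at least 10, 91 were higher at that p and 204 higher without overlap. The median was 0.58 without contusion 2 and 1.14 without normal 1, and this comparison shares the normal arrays with the one before.

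Rplp0 again had the smallest p. The contusion arrays, at 11.89 and 11.71, lay above all normal arrays, with a difference of 1.87 ± 0.54, or 3.66-fold (adjusted p = 0.377, limma, and 0.0946 to 0.851 over the alternatives). Rps3a stood at 11.86 and 12.42 after contusion, again above all normal arrays, with a difference of 1.24 ± 0.43 (adjusted p = 0.520, limma). Rpl14, of the large subunit, stood at 9.91, 9.57 and 9.05 in normal cord and at 11.02 and 10.54 after contusion. Its groups did not overlap, and the difference was 1.27 ± 0.44 (adjusted p = 0.533, limma).

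Members with known roles outside the ribosome lay on both sides of the block's median. Rpl5 and Rpl11, which carry the 5S RNA into the large subunit, differed by 1.05 ± 0.45 and 1.10 ± 0.49 between contusion and normal. For Rpl5 the values were 9.91, 9.54 and 9.44 in normal cord against 10.82 and 10.53. For Rpl11 they were 11.27, 10.08 and 9.82 against 11.39 and 11.59, so that normal 1 stood next to the contusion arrays. Rps6, the substrate of the S6 kinases downstream of mTOR, stood at 12.50, 11.01 and 10.87 against 12.46 and 13.03. The groups overlapped through normal 1, and the difference was 1.29 ± 0.60. Rpl22, an RNA-binding protein with a role in lymphocyte development, stood at 10.73, 11.09 and 10.92 in normal cord and at a mean of 11.76 ± 0.35 (SD, n = 2) after contusion, with a lower value of 11.51. The groups did not overlap, and the difference was 0.84 ± 0.41.

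Rps3, which lines the mRNA entry of the small subunit and has a role in DNA repair, stood at 9.60, 7.82 and 7.31 in normal cord and at 9.11 and 9.48 after contusion. Normal 1 lay above both contusion arrays, and the difference was 1.05 ± 0.63. Rpsa, also known as the laminin receptor, was nearly level in normal cord, with a mean of 11.94 ± 0.09 (SD, n = 3), and spread in contusion (11.68 and 12.95), with a difference of 0.37 ± 0.64. Rps29, of the small subunit, had a difference of 0.01 ± 0.67, the smallest of the core members. It is named for that value, after its values were seen.

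**Figure D3:**
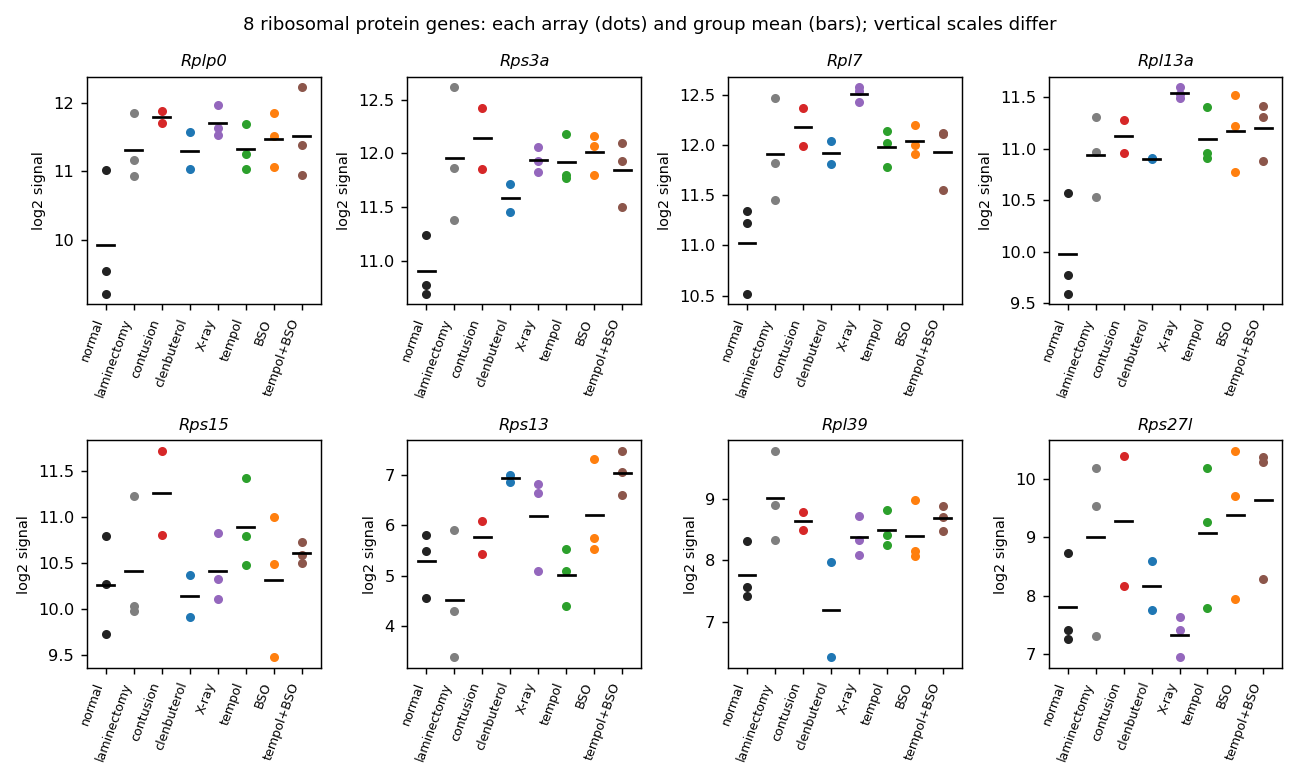
The plots give the log2 signal on the vertical axis (scales differ between plots) for each array (dots) by group, with the group mean as a bar, for Rplp0, Rps3a, Rpl7, Rpl13a, Rps15, Rps13, Rpl39 and Rps27l. In Rps3a and Rpl7 all 3 normal arrays lie below all other arrays. Rps13, Rps15, Rpl39 and Rps27l show other orders.

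Contusion minus laminectomy is the comparison of the injury with its surgical control. Of the 50 members 31 had a higher mean after contusion, with a median of 0.09, against 50.8% and 0.01 over all probe sets. No member passed (limma; 0.00322% of all probe sets did), and 0 had an unadjusted p under 0.05, against 5.38% of all. The median was -0.15 without laminectomy 1 and 0.38 without laminectomy 2, so its direction rests on single arrays. Rps13 had the smallest p, with values of 3.38, 4.29 and 5.90 after laminectomy and 5.43 and 6.09 after contusion (difference 1.23 ± 0.72, adjusted p = 0.948, limma). Rps15, a small-subunit protein needed for export of the nascent subunit, stood at 9.98, 11.23 and 10.04 against 10.80 and 11.72 (0.85 ± 0.54). Rpl22 stood at 11.39, 11.10 and 11.25, below both contusion arrays (0.51 ± 0.41). It was the only member without overlap, where 9.52% of all probe sets had the contusion arrays higher without overlap.

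**Figure D4:**
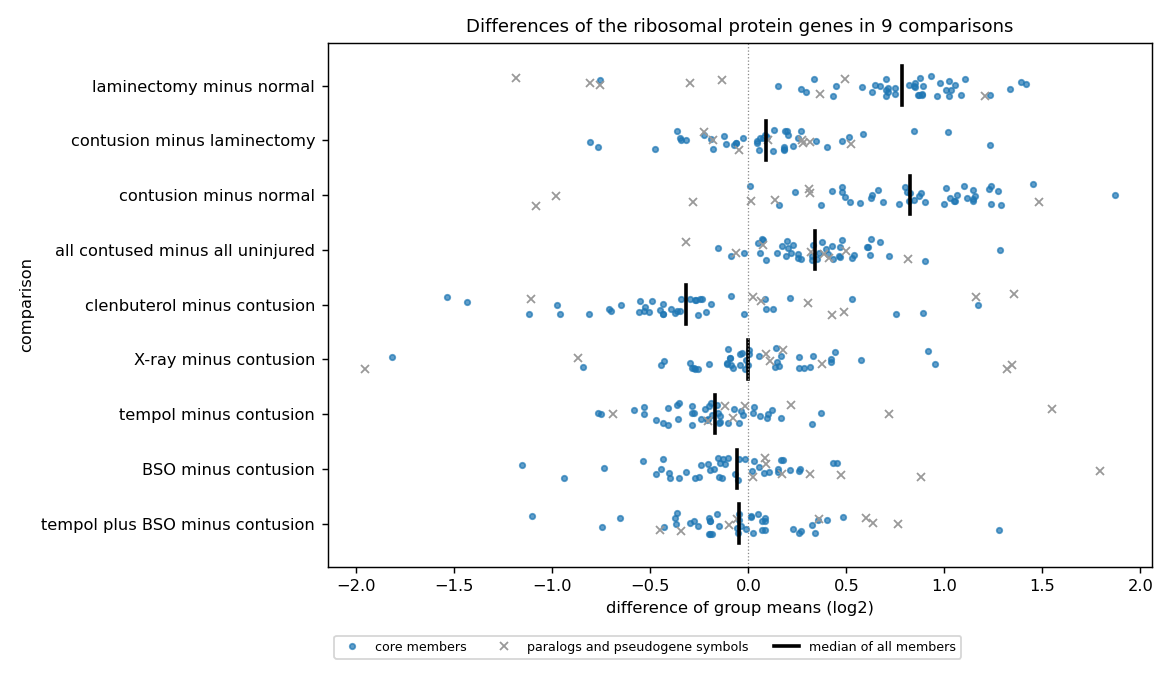
The plot gives the difference of group means (log2, horizontal axis) for every ribosomal protein gene in 9 comparisons (vertical axis), with dots for core members, crosses for paralogs and pseudogene symbols and a bar at the median of all 50. The medians are 0.78 and 0.82 for laminectomy and contusion minus normal and 0.09 for contusion minus laminectomy. The comparisons share arrays and are not independent.

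All 16 contused arrays, treated and untreated, were also set against the 6 uninjured ones, each group mean having the same weight. Of the 50 members 45 were higher in contused cord, with a median of 0.34 against 0.00 over all probe sets. No member passed (limma; 0.319% of all probe sets did), and 7 had an unadjusted p under 0.05, all higher, against 4.95% of all. The median was 0.17 without laminectomy 1 and 0.60 without normal 1 and laminectomy 2 together. No member had arrays without overlap (0.0709% of all probe sets had, with contused arrays higher).

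The value depended on the reference. Against normal cord alone, which was compared only after the data had been seen, 48 of 50 members and all 42 core members were higher (48.3% of all probe sets were), with a median of 0.67, 20 members had an unadjusted p under 0.05 (8.97% of all probe sets had), and 0 passed (limma; 0.377% of all probe sets did). Against laminectomy alone 24 of 50 were higher (49.0% of all probe sets were), the median was -0.03, 1 member had an unadjusted p under 0.05 (7.75% of all probe sets had) and 0 passed (limma; 0.0129% of all probe sets did).

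Rps13, of the small subunit, had the smallest p against all uninjured arrays. It ranged from 3.38 to 5.90 with a median of 5.02 in the uninjured and from 4.40 to 7.47 with a median of 6.34 in the contused arrays. In 9 of 16 contused arrays it lay above every uninjured one, and the difference was 1.28 ± 0.38, or 2.43-fold (adjusted p = 0.192, limma). Its probe set was dim, with a mean of 5.82, and its arrays varied within groups more than those of most core members (standard deviation 0.80).

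Rpl13a, a large-subunit protein that also takes part in the silencing of inflammatory mRNAs, ranged from 9.59 to 11.31 with a median of 10.55 in the uninjured and from 10.78 to 11.60 with a median of 11.25 in the contused arrays. All 16 contused arrays lay above the 3 normal ones (10.57, 9.77 and 9.59), but laminectomy 2 and laminectomy 3 lay among them. The difference was 0.72 ± 0.23 against all uninjured arrays (adjusted p = 0.227, limma) and 1.20 ± 0.29 against normal cord alone (adjusted p = 0.106, limma).

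Rplp0 ranged from 9.21 to 11.85 in the uninjured and from 10.95 to 12.23 in the contused arrays, with medians of 10.98 and 11.55. In 15 of the 16 contused arrays it lay above all normal arrays. The difference was 0.90 ± 0.29 (adjusted p = 0.232, limma, and 0.0607 to 0.926 over the alternatives). The upper end, 0.926, belongs to the comparison with laminectomy cord alone, which has another reference and was added after the data were seen. Against normal cord alone the difference was 1.60 ± 0.37 (adjusted p = 0.0834, limma). Rpl7, of the large subunit, had medians of 11.40 and 12.08, and Rpl14 had 10.04 and 10.56. Rpl11 had 10.88 and 11.53. Their differences were 0.63 ± 0.22, 0.61 ± 0.23 and 0.61 ± 0.26, with adjusted p values of 0.296, 0.348 and 0.412 (limma).

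Rpl7 and Rps3a were the only core members in which all 3 normal arrays were the lowest of the 22, an order found in 0.403% of all probe sets. For Rpl7 the normal values were 11.22, 11.35 and 10.51, and the lowest operated array was laminectomy 1 at 11.46. Its group mean was highest with X-rays, where the arrays stood at 12.44, 12.58 and 12.54.

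The treatment comparisons each set 2 or 3 treated arrays against the same 2 contusion arrays, so they share the control. No member passed in any of them (limma). The percentages of all probe sets passing were 0.00322 for clenbuterol and 0.0 for each of the other 4 treatments. At an unadjusted p under 0.05 there was 1 member for clenbuterol (5.36% of all probe sets) and 1 for X-ray (4.81%). There were 0 for tempol (2.82%), BSO (3.46%) and tempol plus BSO (3.98%). Groups this small often separate: in contusion minus laminectomy 9.52% of all probe sets had the contusion arrays higher without overlap. For X-ray, tempol and tempol plus BSO that share is not given here, so non-overlap of single members below is description only.

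With clenbuterol 35 of the 50 members were lower than after contusion alone, with a median difference of -0.32, against -0.03 and 51.7% over all probe sets. In 19 members, all core, both clenbuterol arrays lay below both contusion arrays, against 18.8% of all probe sets. The median was -0.09 without contusion 2 and -0.53 without clenbuterol 1. Rpl39, a small protein of the large subunit's exit tunnel, stood at 8.49 and 8.79 after contusion and at 6.42 and 7.98 with clenbuterol, a difference of -1.44 ± 0.58 (adjusted p = 0.912, limma). Clenbuterol 1 was its lowest array of all, and without clenbuterol 1 the difference was the smallest of its alternatives, -0.66. Rps15 stood at 10.37 and 9.91 with clenbuterol against 10.80 and 11.72 (-1.12 ± 0.60). Rpl5 stood at 9.69 and 10.04 against 10.82 and 10.53 (-0.82 ± 0.50).

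With X-rays 25 members were higher and 25 lower, with a median of 0.00, and 47.8% of all probe sets were higher. After quantile normalization 19 were higher and the median was -0.13. Rpl24, which forms a bridge between the subunits, stood at 11.55, 11.56 and 11.26 against 10.18 and 10.90 after contusion (0.91 ± 0.43, adjusted p = 1.00, limma). The groups did not overlap. Rpl30 of the large subunit stood at 6.89, 6.85 and 5.27 against 7.83 and 8.48 (-1.82 ± 0.89), and its arrays varied widely in other groups too, from 4.92 to 8.39 within laminectomy.

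Rps27l, a paralog of Rps27 known as a target of p53, stood at 6.94, 7.41 and 7.64 with X-rays and at 8.17 and 10.40 after contusion, a difference of -1.95 ± 0.96 (adjusted p = 1.00, limma). The X-ray arrays lay close together at the low end, whereas the spread was wider in other groups, from 7.30 to 10.19 in laminectomy and from 7.94 to 10.48 with BSO. The difference ran from -3.07 to -0.84 over the alternatives.

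With tempol 38 of 50 members were lower (51.4% of all probe sets were), with a median of -0.17, and without contusion 2 the median was 0.03. Rpl3l, the paralog of Rpl3 in striated muscle, had a mean of 6.02 ± 0.99 (SD, n = 3) against 4.74 and 4.20, without overlap (1.55 ± 0.95). Its probe set was dim and reached 7.23 in normal 2. Rpl5 stood at 9.84, 10.11 and 10.33, below both contusion arrays (-0.58 ± 0.45). Rpl26l1, the paralog of Rpl26, stood at 7.36, 8.31 and 7.74 against 8.60 and 8.39 (-0.69 ± 0.55). All 3 adjusted p values were 1.00 (limma).

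With BSO 22 of 50 members were higher (50.3% of all probe sets were) and the median was -0.06. Rps15 stood at 9.47, 10.49 and 11.00 against 10.80 and 11.72 (-0.94 ± 0.54). The pseudogene symbol Rps4x-ps1 stood at 5.97, 7.05 and 6.76 against 5.52 and 4.08 (1.79 ± 1.19). Rpl19 stood at 7.90, 11.55 and 11.81 against 11.35 and 11.80 (-1.16 ± 0.84), with BSO 1 far below every other array, and the difference without BSO 1 was 0.10.

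With tempol plus BSO 22 members were higher (51.4% of all probe sets were) and the median was -0.05. Rps13 stood at 7.47, 7.05 and 6.59, above both contusion arrays (1.28 ± 0.72), Rpl30 at 6.92, 6.96 and 7.28 below them (-1.10 ± 0.89), and Rps15 at 10.59, 10.73 and 10.51 below them (-0.65 ± 0.54). Over all members the widths of these comparisons limit what could be seen: the median standard error was 0.54 for 3 arrays against 2 and 0.59 for 2 against 2.

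The remaining paralog of the fixed set, Rpl7l1, stood at 9.91, 9.32 and 8.52 in normal cord and at 8.18, 9.58 and 9.58 after laminectomy, a difference of -0.14 ± 0.53. Rpl3l differed by -1.19 ± 0.85 in that comparison and Rps27l by 1.21 ± 0.86. Over the 8 paralogs and pseudogene symbols 3 were higher after laminectomy, with a median of -0.22, and 5 of 8 were higher after contusion than in normal cord, with a median of 0.08. Rpl39l1 ranged from 2.23 to 7.79 over the arrays.

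A few genes had a second, weaker probe set. Over these 7 probe sets of 6 genes 4 were higher after laminectomy, with a median of 0.36. Those of Rpsa differed by 1.49 and 1.09, where its brightest one differed by 0.30, and those of Rpl14, Rpl3 and Rps24 differed by -0.18, -0.17 and -0.98, against 0.93, 0.85 and 1.02 on the bright ones. The second probe set of Rpl7 differed by 0.55 and its bright one by 0.89, and for Rpl7l1 the values were 0.36 and -0.14. The probe sets of Rpl14, Rpl3, Rps24 and Rpl7l1 therefore disagreed in direction, and those of Rpsa and Rpl7 did not. The 35 probe sets with several symbols gave a median of 0.84 in laminectomy minus normal, with 34 higher, and of 0.92 in contusion minus normal, with 33 higher.

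The other mRNAs of the translation machinery were read from lists of their own. Of 20 translation factors and other TOP mRNAs 13 were measured, and 0 passed in the 3 comparisons described here (limma). At an unadjusted p under 0.05 there were 3 in laminectomy minus normal, 4 in contusion minus normal and 3 in contused minus uninjured, where 5.59%, 6.65% and 10.4% of all probe sets were, in either direction. In laminectomy minus normal 11 of 13 were higher, with a median of 0.82, and in contusion minus normal 11 of 13, with a median of 0.60. The elongation factor subunits Eef1g (1.74 ± 0.68) and Eef1b2 (0.82 ± 0.41), the ribosome-bound scaffold Rack1 (0.94 ± 0.43) and the intermediate filament gene Vim (1.74 ± 0.65), which glia also raise after injury, were among those higher after laminectomy. The elongation factor Eef2 (-0.27 ± 0.64) and the initiation factor Eif4b (-0.45 ± 0.42) were not. By array the median deviation of this list was -1.10 in normal 3, -0.57 in normal 2 and 0.61 in laminectomy 2, the same extremes as in the core members.

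Of 38 ribosome biogenesis genes, which make and process ribosomal RNA, 27 were higher after laminectomy than in normal cord, with a median of 0.23, and 25 were higher after contusion, with a median of 0.29. None passed (limma, with 2 at an unadjusted p under 0.05 in the first comparison, against 5.59% of all probe sets in either direction, and 7 in the second, against 6.65%). After contusion Pno1, an assembly factor of the small subunit, differed by 1.54 ± 0.54, Nop58, a core protein of box C/D particles, by 1.18 ± 0.42, and Myc, a transcription factor that drives ribosome synthesis, by 1.52 ± 0.66. Dkc1, the pseudouridine synthase of box H/ACA particles, went the other way by -3.48 ± 0.99 (adjusted p = 0.357, limma). It stood at 7.78, 6.56 and 7.37 in normal cord and at 5.52 and 2 in contusion 1 and contusion 2. The size of its difference thus rests largely on the very dim value of contusion 2, though contusion 1 also lay below all normal arrays. In all contused minus all uninjured arrays Dkc1 differed by -1.95 ± 0.52 (adjusted p = 0.138, limma). Against all uninjured arrays Pno1 had an adjusted p of 0.0875 (limma), with a difference of 1.22 ± 0.28.

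The 73 mitochondrial ribosomal protein genes, which build a separate ribosome, had medians of 0.12 in laminectomy minus normal (43 higher) and 0.12 in contusion minus normal (39 higher). By array their median deviation was -0.16 in normal 3 and -0.08 in normal 2. None passed in either comparison (limma, with 4 at an unadjusted p under 0.05 in each, against 5.59% and 6.65% of all probe sets).

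**Figure D5:**
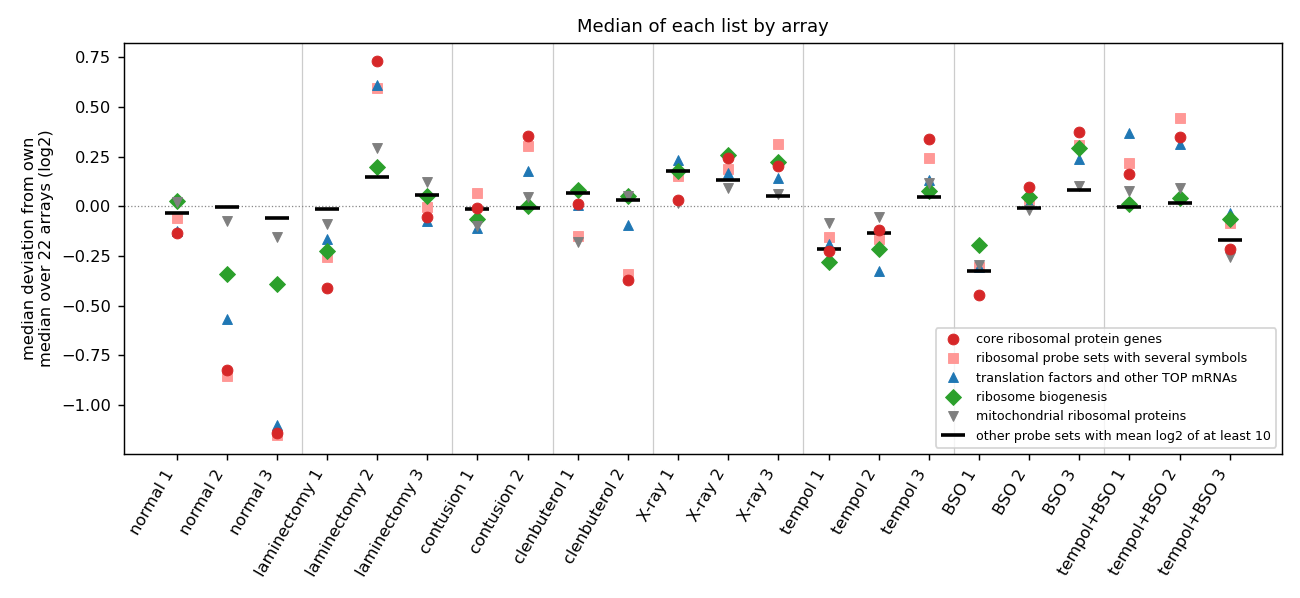
The plot gives, for each of the 22 arrays, the median deviation (log2) of each list from its genes' own medians over the arrays. Core ribosomal protein genes, ribosomal probe sets with several symbols and translation factors are lowest in normal 3 (-1.14, -1.15 and -1.10), whereas mitochondrial ribosomal proteins (-0.16) and other bright probe sets (-0.06) lie near 0 there. In BSO 1 the other bright probe sets (-0.33) are low together with the core genes (-0.44).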

How the data were processed

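RNA of 22 rat spinal cord samples was hybridised to 1 Affymetrix array each. The authors deposited a signal intensity per probe set on a linear scale. The submitters' processing notes name RMA, but the deposited intensities are not logarithmic, and each array has a mean of 250.0 after 2% is trimmed at either end. The software and its settings are not given in the sources used here. Here the log2 of the intensity was taken (range of intensities 0.3 to 154527) and no further normalization was applied. Of 31099 probe sets 57 controls were left out. Symbols came from the platform annotation (20826 probe sets with 1 symbol, 436 with several, 9780 with none), and 48 members matched RefSeq by Entrez number and 2 by symbol.

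One limma fit (limma 3.58.1, R 4.3.3) with 8 group means was run on all arrays and 31042 probe sets, with eBayes, two-sided p-values and Benjamini-Hochberg adjustment at 0.05. Values after ± are standard errors. The number of arrays limits the precision. Members are described by counts and medians beside those of all probe sets. Members named are those with the smallest p in each comparison, those with the largest and smallest spread, and a set of genes with particular roles. The members and lists were chosen with earlier results of these data known. The fit was tested on simulated data. Alternatives were quantile normalization, a minimum signal (log2 of at least 6 on 2 or more arrays), trend and robust eBayes, log2 of signal plus 32, only the compared groups, the replicate block, the mean of a gene's probe sets, and leaving out arrays. The comparisons of contused arrays with normal or laminectomy cord alone were added after the data were seen. Most same-numbered arrays of different groups did not deviate together (7 of 71 correlations were over 0.1), so the numbers were not taken as pairs. Of these 7, 5 lay among the arrays numbered 1 of laminectomy, contusion, tempol and BSO (0.10 to 0.20 over their 6 pairs), which are 4 of the 5 arrays with the weakest hybridization spikes.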

Additional observations from a re-analysis of the deposited data

How the results depend on the processing

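No member passed the adjusted threshold under any alternative that was run, in the F test or in the 9 comparisons, so every count stayed at 0. Quantile normalization, the filter, log2 of signal plus 32 and the mean of a gene's probe sets left the members' median between 0.67 and 0.78 in laminectomy minus normal and between 0.79 and 0.88 in contusion minus normal. With the trend and robust settings 16 probe sets passed in laminectomy minus normal, 34 in contusion minus normal and 182 in contused minus uninjured, none of them a member. With the replicate numbers as a replicate block 0 members passed, and the medians were 0.78 and 0.81 in the first 2 of these comparisons. The labels do not say that arrays with the same replicate number belong together. With single arrays left out the median ran from 0.46 to 1.13 in laminectomy minus normal, 0.58 to 1.14 in contusion minus normal, -0.15 to 0.38 in contusion minus laminectomy, 0.17 to 0.43 in contused minus uninjured, -0.53 to -0.09 for clenbuterol, -0.19 to 0.25 for X-ray, -0.39 to 0.03 for tempol, -0.27 to 0.15 for BSO and -0.24 to 0.14 for tempol plus BSO, always with 0 members passing. An array left alone in a group of 2 was assumed to vary like the others. Of the named genes 1 value reversed, Rpl19 in BSO minus contusion, which ran from -1.85 without BSO 3 to 0.10 without BSO 1, the array far below the others.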
